A study of Mus musculus with 4 samples.

Results

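The neutrophil granule and receptor genes are 9 genes grouped here as neutrophil markers, S100a8, S100a9, Lcn2, Ngp, Camp, Hp, Csf3r, Fpr1 and Retnlg. Not all of them are particular to the neutrophil. They were taken by gene name from the non-control probes of 4 arrays of infarcted mouse heart. Each gene had 1 probe, so there were 9 probes among 41174, and 9 genes among 20049 with a symbol. The probes of 7 genes were well above background on all 4 arrays and entered the test over 28304 probes, whereas those of Ngp and Camp were too dim for it. The arrays compared KDM5B-knockout (KO) with wild-type (WT) mice, to ask which transcripts of the infarcted ventricle change when KDM5B, a histone demethylase, is missing.

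The WT mice were C57BL/6. The KO mice, on the same background, carried a CRISPR/Cas9 deletion in Kdm5b that removed the JmjC domain, the demethylase part of the protein, and shifted the reading frame. Mice of both genotypes were labelled male, were aged 8 to 10 weeks at operation, and had the left anterior descending coronary artery permanently tied. Left ventricle was taken on day 7 after infarction in every case, and the deletion was in the whole animal, not in one cell type. Each group had 2 arrays, numbered 2 and 3 by the titles, and the labels do not say whether each is a single animal. The sex-linked signal given below differed between the numbers in each genotype, so the samples of a group were not from the same animal. The p-values measure the spread between these samples only.

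Neutrophils are the first white blood cells to enter an infarct in large numbers, drawn in by chemokines and by formyl peptides from damaged cells. They carry ready-made antimicrobial proteins in granules, and much of the RNA for these proteins is made in the bone marrow before the cell is released. Mature cells in tissue keep high levels of the RNA for the cytosolic alarmins S100A8 and S100A9 and for surface receptors.

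The arrays were checked against their labels before the genes were compared. Kdm5b read -0.87 and -1.80 on WT 2 and WT 3, and -2.40 and -2.26 on KO 2 and KO 3, as log2 processed signal relative to the 75th percentile of each array, the scale used for all levels here unless stated. Each KO array was below each WT array, as for 10.9% of all tested probes, with signal still well above background. Kdm5b was 2.897-fold lower on KO 2 than on WT 2, but only 1.374-fold lower on KO 3 than on WT 3. Its unadjusted limma p was 0.07165, so the knockout label was checked by direction only. Kdm5b had 2 probes, and the other is not given here. Xist, the RNA of the inactive X chromosome, had a processed signal of 17954 and 9701 on the number 2 arrays (WT, KO) and of 3.78 and 4.04 on the number 3 arrays, and the Y-linked Ddx3y was well above background on WT 3 and KO 3 only. The number 2 and number 3 arrays of each genotype therefore differed in sex-linked signal although all 4 were labelled male, so values are repeated below for number 2 and number 3 apart, each with a single WT and a single KO array. The heart muscle genes Myh6 and Tnnt2 were well above background on all 4 arrays.

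The promoters of the genes were read for 2 short motifs of factors that act in granulocyte development. The reason was that the genes were grouped as neutrophil markers and most of them moved together over the arrays. RefSeq (GRCm38.p6) gave a window of 250 bases before to 50 bases after the start for 8 of the 9 genes, and Hp was not matched. The letters TTGCNNAA, a C/EBP motif, occurred on either strand in 4 of the 8 windows, against 10.8% of all 32851 promoters. The letters GAGGAAGT, a PU.1 motif, occurred in 1 of the 8, against 3.2% of all promoters. Of 41 other neutrophil genes with a window, 8 held the C/EBP letters and 8 the PU.1 letters. The stretches around the matches are shown 5′ to 3′ on the strand of the gene, with the matching letters in capitals. The match in S100a8, at chr3:90668869-90668936 (+), is the PU.1 motif on the opposite strand. The others are C/EBP matches, in S100a9 at chr3:90695920-90695971 (-), in Lcn2 at chr2:32387918-32387985 (-), in Ngp at chr9:110419640-110419807 (+), which holds one on either strand, and in Retnlg at chr16:48872358-48872399 (+), where it lies on the opposite strand. A match describes the letters in the window and is not a binding site.
S100a8: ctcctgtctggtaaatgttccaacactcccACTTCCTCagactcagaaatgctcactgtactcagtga
S100a9: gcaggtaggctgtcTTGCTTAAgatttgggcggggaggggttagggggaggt
Lcn2: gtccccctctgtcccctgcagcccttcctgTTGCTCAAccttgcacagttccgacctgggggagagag
Ngp: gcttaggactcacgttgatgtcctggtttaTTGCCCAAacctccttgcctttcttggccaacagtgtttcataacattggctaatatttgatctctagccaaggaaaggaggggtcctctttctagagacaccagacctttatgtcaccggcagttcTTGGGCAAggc
Retnlg: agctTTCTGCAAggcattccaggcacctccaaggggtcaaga

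Across the 7 genes tested, 6 were lower in KO than in WT on average and Lcn2 was higher, but none differed beyond the spread between arrays once all probes were taken into account. A probe was called when its Benjamini-Hochberg adjusted limma p was under 0.05 and it differed by more than 2-fold, and 0 of the 7 probes and 0% of all tested probes were called. Hp alone had an unadjusted limma p under 0.05, as did 1.45% of all tested probes, and the adjusted limma p was 0.9999 for each of the 7. The smallest two-sided p of an exact permutation test with 2 arrays a group is 0.333. By size alone, 5 of the 7 were over 2-fold lower in KO, against 2.35% of tested probes, and the 6 that were lower on average compare with 47.7% of tested probes. The median difference over the 7 genes was -1.07 on the log2 scale, against 0.04 over the 15062 genes tested.

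**Figure D1:**
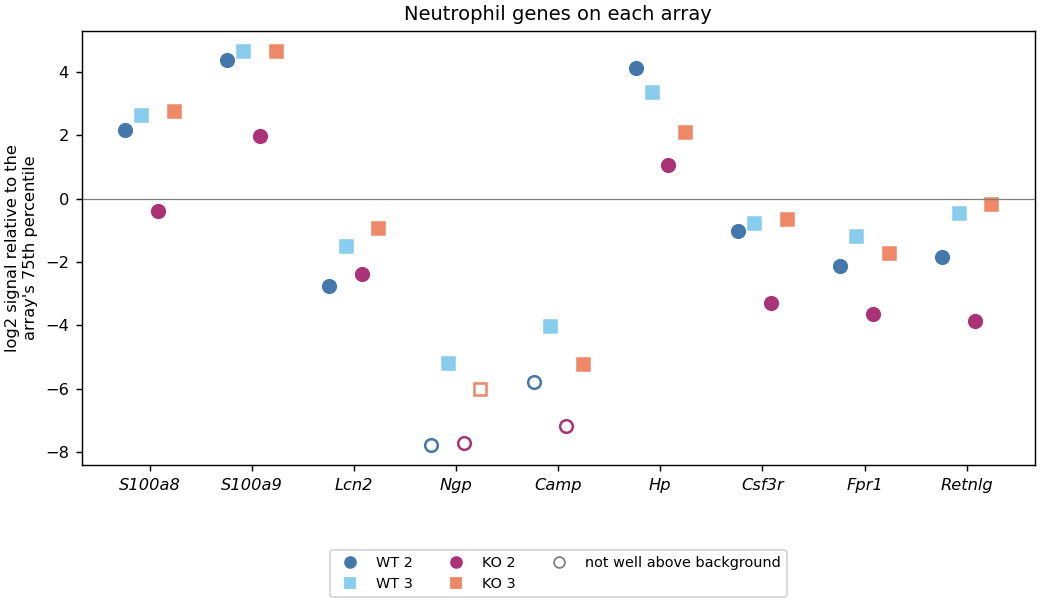
Level of each of the 9 genes on each array (vertical axis, log2 processed signal scaled to each array's 75th percentile; points are single arrays, open points are not well above background). For S100a8, S100a9, Csf3r, Fpr1 and Retnlg the KO 2 point lies below the other 3, whereas for Hp both KO points lie below both WT points. Heights of different genes are of different probes and are not comparable.

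S100a8 and S100a9 encode the 2 subunits of calprotectin, a calcium-binding alarmin that makes up much of the neutrophil cytosol. The S100a8 probe lies at chr3:90473778-90473837 (mm9, plus strand), as the files give it, and the place of this and the other probes within exons was not determined. S100a8 had a processed signal of 3916 and 6119 on WT 2 and WT 3, and 470 and 6010 on KO 2 and KO 3. It was thus as bright on KO 3 as on WT 3, and KO 2 was the dim array. Signals given without a log are not scaled between arrays. The 75th percentile of the array was 876 and 976 on WT 2 and WT 3, and 608 and 885 on KO 2 and KO 3. On the scaled log2 scale the S100a8 level averaged 2.40 in WT (SD 0.35, n = 2) and 1.20 in KO (SD 2.22, n = 2). The difference of -1.21 (SE 1.18, 2.31-fold lower) was smaller than the SD of the KO arrays, and its unadjusted limma p was 0.366.

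S100a9, at chr3:90496585-90496644 (mm9, minus strand), followed the same order of arrays except at the top. Its processed signal was 18383 and 24847 on WT 2 and WT 3, and 2390 and 22380 on KO 2 and KO 3, and only KO 2 stood apart. The log2 level averaged 4.53 in WT (SD 0.20, n = 2) and 3.32 in KO (SD 1.90, n = 2). KO minus WT was -1.21 (SE 1.01, 2.32-fold lower, unadjusted limma p 0.299). In both alarmin genes the WT and KO levels overlapped. In bulk tissue, fewer cells that express a gene and less of its RNA per cell cannot be told apart. Which cell types gave the signal was not determined, and both limits hold for every gene below.

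Hp encodes haptoglobin, the plasma protein that binds free haemoglobin, made mainly by the liver as an acute-phase protein and also stored in neutrophil granules. Its probe lies at chr8:112099172-112099231 (mm9, minus strand). Hp had a processed signal of 15366 and 10106 on WT 2 and WT 3, and 1270 and 3852 on KO 2 and KO 3. The KO arrays were the 2 dimmest, which held for no other of the 7 genes and for 10.9% of all tested probes. The log2 level averaged 3.75 in WT (SD 0.54, n = 2) and 1.59 in KO (SD 0.75, n = 2). The difference of -2.16 (SE 0.52, 4.47-fold lower) was larger than the SD of either group, with an unadjusted limma p of 0.0159, and it did not pass the adjustment over all probes.

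Lcn2, Ngp and Camp encode proteins of the specific granules. Lcn2 is lipocalin 2, which holds back iron from bacteria by binding their siderophores, and its probe is mapped in the files to chr2:32241037-32241281 (mm9, minus strand). The Lcn2 level was -2.76 and -1.48 on WT 2 and WT 3, and -2.36 and -0.93 on KO 2 and KO 3. Lcn2 ran apart from the other tested genes, in that the lowest array was WT 2 and each KO array lay above the WT array of the same number. The difference was 0.47 (SE 0.73, unadjusted limma p 0.554), below the SDs of 0.91 in WT and 1.01 in KO (n = 2 each).

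Ngp, the neutrophilic granule protein, at chr9:110324266-110324814 (mm9, plus strand), had a processed signal of 3.96 and 26.5 on WT 2 and WT 3, and 2.87 and 13.6 on KO 2 and KO 3, and was well above background on WT 3 only. Between the number 3 arrays it was at least 1.55-fold higher on WT 3 than on KO 3, where the KO 3 side is the dimmest signal that counted as well above background on that array. Camp encodes cathelicidin, the precursor of an antimicrobial peptide, and its probe lies at chr9:109749992-109750051 (mm9, minus strand). Camp had a processed signal of 15.9 and 60.7 on WT 2 and WT 3, and 4.21 and 23.8 on KO 2 and KO 3. It was well above background on WT 3 and KO 3 only, where it was 2.32-fold lower in KO. Neither Ngp nor Camp was well above background on a number 2 array, and no fold between the genotypes is given for them there.

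Csf3r encodes the receptor for granulocyte colony-stimulating factor, which drives neutrophil production and survival. At chr4:125721294-125721353 (mm9, plus strand), it read -1.02 and -0.78 on WT 2 and WT 3, and -3.29 and -0.65 on KO 2 and KO 3. KO 2 was lowest and KO 3 highest, so the groups overlapped. The difference was -1.07 (SE 0.99, 2.10-fold lower, unadjusted limma p 0.344), against an SD of 0.17 in WT and 1.87 in KO (n = 2 each).

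Fpr1 encodes the receptor through which neutrophils follow formyl peptides from bacteria and mitochondria. At chr17:18013609-18013668 (mm9, minus strand), it read -2.14 and -1.19 on WT 2 and WT 3, and -3.64 and -1.72 on KO 2 and KO 3. KO 3 lay between the 2 WT arrays, and each KO array lay below the WT array of its number. The difference was -1.01 (SE 0.81, 2.02-fold lower, unadjusted limma p 0.282), with an SD of 0.67 in WT and 1.36 in KO (n = 2 each).

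Retnlg encodes resistin-like gamma, a secreted protein of the resistin family found in bone marrow and circulating neutrophils. At chr16:48874468-48874527 (mm9, plus strand), it read -1.84 and -0.46 on WT 2 and WT 3, and -3.86 and -0.18 on KO 2 and KO 3. As with Csf3r, the KO arrays were the lowest and the highest of the 4. The difference was -0.87 (SE 1.45, 1.83-fold lower, unadjusted limma p 0.582), and the SD was 0.98 in WT and 2.61 in KO (n = 2 each).

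The order of the arrays was then compared within each number. At number 2, 6 of the 7 genes were over 2-fold lower on KO 2 than on WT 2, from 2.83-fold for Fpr1 to 8.39-fold for Hp, against 8.84% of tested probes. S100a8 was 5.78-fold, S100a9 5.33-fold, Csf3r 4.84-fold and Retnlg 4.06-fold lower on KO 2. At number 3, Hp was 2.38-fold lower on KO 3 and was the 1 gene past 2-fold, against 1.78% of tested probes. Fpr1 was 1.44-fold lower on KO 3, whereas S100a8, S100a9, Csf3r and Retnlg differed there by 0.12, -0.01, 0.13 and 0.28 on the log2 scale. The median over the 7 genes was -2.28 at number 2 and 0.12 at number 3, against 0.04 and 0.03 over all tested genes. These within-number values have no replicate and no test.

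**Figure D2:**
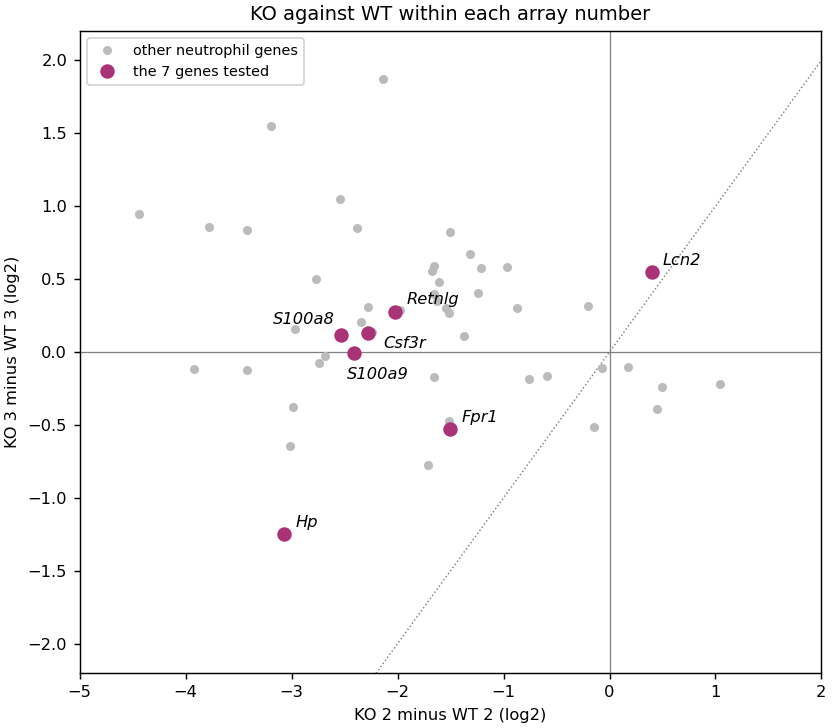
Difference KO minus WT at number 3 (vertical axis, log2) against that at number 2 (horizontal axis, log2), for the 7 genes tested (large points) and 45 other neutrophil genes (small points); the dotted line marks equal differences. Apart from Hp, Fpr1 and Lcn2, the named genes lie between -2.53 and -2.02 at number 2 and between -0.01 and 0.28 at number 3.

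Between arrays of one genotype, which also differed in sex-linked signal, the genes differed too. KO 3 was over 2-fold above KO 2 for 7 of the 7 genes, against 14.0% of tested probes, and the median difference was 2.65 on the log2 scale. The largest of these was 3.68 for Retnlg and the smallest 1.06 for Hp. Between WT 3 and WT 2, Lcn2 and Retnlg, 2 of the 7 genes, were over 2-fold higher on WT 3, by 1.28 and 1.39 on the log2 scale, against 1.88% of tested probes. Hp ran the other way and was lower on WT 3 by a difference of -0.76. KO 2 was the lowest of the 4 arrays for 6 of the 7 genes, against 41.4% of tested probes.

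The differences in S100a8, S100a9, Csf3r and Retnlg rested on KO 2. Without KO 2, KO minus WT was 0.36 for S100a8, 0.13 for S100a9, 0.25 for Csf3r and 0.97 for Retnlg, and it was -0.05 for Fpr1. The number of genes over 2-fold lower in KO went from 5 to 1 without KO 2, to 2 without WT 3, and to 6 without WT 2 or without KO 3. Hp kept its direction with any array left out, between -2.69 and -1.63. Lcn2 changed direction, to -0.24 without KO 3 and -0.17 without WT 2.

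**Figure D3:**
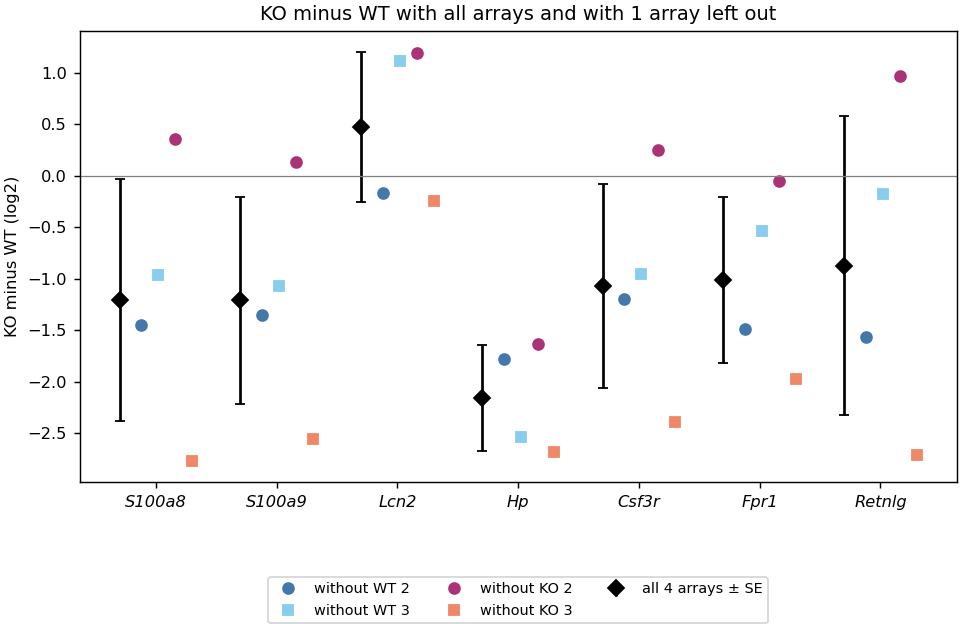
Difference KO minus WT (vertical axis, log2) of each of the 7 genes with all 4 arrays (diamonds, bars show the SE of the limma fit) and with 1 array left out (points). Without KO 2, S100a8, S100a9, Csf3r and Retnlg move above 0, whereas every Hp point stays at or below -1.63.

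Lists of other neutrophil genes held 52 genes. Not all of these are particular to neutrophils, and Chil3 is also counted among the monocyte genes below. Of 45 that were tested, 0 were called and 0 had an unadjusted limma p under 0.05. By direction 40 were lower in KO and 5 higher, with a median difference of -0.63, against 47.7% lower among all tested probes. At number 2, 41 were lower and 4 higher (median -1.66), whereas at number 3, 17 were lower and 28 higher (median 0.28). KO 2 was the lowest array for 39 of the 45, against 41.4% of all tested probes. On KO 2, 10 of the 45 were not well above background. These 10 entered the test only because both WT arrays were well above background, and all were lower in KO. Their direction was thus partly set by the filter, and they are in the counts given here and by list below. The 10 were then read at the dimmest signal that counted as well above background, or at their own signal where that was higher. The median at number 2 was then -1.56. Ly6g and Cebpe were not found by name on the array.

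Azurophil granule enzymes are made early in neutrophil development, and 2 of the 3 tested were lower in KO. Mpo, myeloperoxidase, read -1.83 and -1.44 on WT 2 and WT 3, and -3.54 and -2.22 on KO 2 and KO 3. Both KO arrays were below both WT arrays (difference -1.24, SE 0.54), as for 10.9% of all tested probes. The proteases Ctsg and Prtn3 differed by -0.33 and 0.06, and Elane, neutrophil elastase, was not well above background on any array.

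Of the specific and gelatinase granule genes, 7 of 8 tested were lower in KO, with a median of -2.05 at number 2 and -0.18 at number 3. Mmp9, gelatinase B, differed by -1.68 (SE 1.14), and its level on KO 2 was -4.83 against -1.78 on KO 3. Pglyrp1, a peptidoglycan-binding protein, differed by -0.91 (SE 0.57). Mmp8, neutrophil collagenase, and Ltf, lactoferrin, were well above background on every array but KO 2, where they were at least 3.06-fold and at least 1.33-fold lower than on WT 2. Mmp25, a membrane-bound protease, was well above background in WT but on no KO array.

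Of the other receptors, 13 of 13 tested were lower in KO on average, though 9 of the 13 were higher on KO 3 than on WT 3. Among the 13, Cxcr2, Trem3 and C5ar1 entered the test only through the WT arrays. Cxcr2, the chemokine receptor that calls neutrophils into tissue, read -1.89 and -2.54 on WT 2 and WT 3, and -5.82 and -2.66 on KO 2 and KO 3, and on KO 2 it was not well above background. Il1r2, the decoy receptor for interleukin-1, differed by -1.41 (SE 0.85) and by -2.25 with its other tested probe, and Clec4d, a C-type lectin, by -1.36 (SE 1.51). Fpr2, the paralogue of Fpr1, differed by -0.99 (SE 0.57), but its other tested probe differed by -0.13. Both KO arrays were below both WT arrays for Fpr2, Cxcr2 and Il1r2, as for 10.9% of all tested probes. In each of them KO 3 lay close to the lower WT array. It read -2.12 against -2.01 on WT 2 for Fpr2, and -1.85 against -1.77 on WT 3 for Il1r2.

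The 5 subunits of the NADPH oxidase, which makes superoxide in neutrophils and macrophages, were all lower on KO 2 than on WT 2 and all higher on KO 3 than on WT 3. Cybb differed by -0.64 (SE 0.91), Ncf1 by -0.62 (SE 0.89) and Ncf4 by -0.57 (SE 0.92). Among stefins and other cytosolic genes, 9 of 11 were lower in KO. Stfa1 and Stfa2, near-identical copies that a probe may not separate, were not well above background on KO 2, where they were at least 4.58-fold and at least 2.94-fold lower than on WT 2, and on KO 3 they were higher than on WT 3, by 0.94 and 0.86. The interferon-induced Slfn4 differed by -1.41 (SE 0.86). Of the transcription factors, 4 of 5 were lower. Gfi1, a repressor needed for neutrophil development, was not well above background on KO 2, where it was at least 2.39-fold lower than on WT 2. Cebpa differed by -0.62 (SE 1.04) with its brighter probe and by 0.01 with the other, and Spi1, which encodes PU.1, differed by -0.56 (SE 1.08).

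Chemokines and cytokines that draw neutrophils into tissue were also counted, and 5 of 6 tested were lower in KO at number 2 and 5 of 6 at number 3. Cxcl5, a ligand of CXCR2, read 1.31 and 0.26 on WT 2 and WT 3, and -2.15 and -1.67 on KO 2 and KO 3. Both KO arrays were below both WT arrays, as for 10.9% of all tested probes. The difference of -2.69 (SE 0.47) had an unadjusted limma p of 0.00546 and did not pass the adjustment. Cxcl1 differed by -0.89 (SE 0.52), but KO 2, at -0.95, was almost level with WT 3, at -0.94. Cxcl2 was well above background on 1 array only. Csf3, the ligand of the receptor encoded by Csf3r, was not well above background on any array. Anxa1, a ligand of the formyl peptide receptors, differed by -0.22 (SE 0.77). Among genes that act with haptoglobin, Cd163 encodes the macrophage receptor for its complex with haemoglobin. Cd163 was higher in KO by 1.05 (SE 0.55, unadjusted limma p 0.136) and did not pass the adjustment. Both KO arrays were above both WT arrays, a split that held in the opposite direction for 10.9% of all tested probes. Of 10 macrophage genes, 1 was higher in KO on average, Cd163, and 9 were lower. Hmox1 and Hpx differed by -0.86 (SE 1.28) and -0.55 (SE 0.42). The haemoglobin genes Hbb-b1 and Hba-a1 differed by 0.47 (SE 0.68) and 0.39 (SE 0.80). WT and KO levels overlapped for Hmox1, Hpx, Hbb-b1 and Hba-a1.

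Markers of other cell types moved over the same arrays. Summed over 10 macrophage genes, the signal in units of the 75th percentile of the array was 96.0 and 158 on WT 2 and WT 3, and 44.7 and 191 on KO 2 and KO 3. KO 2 was lowest for 9 of these 10 genes, as it was for S100a8 and S100a9, which summed to 25.4, 31.7, 4.71 and 32.1 in the same order. The 14 cardiomyocyte genes summed to 2149, 1064, 3761 and 757, highest on KO 2 and lowest on KO 3, with 13 of the 14 higher on KO 2 than on WT 2 and 14 of the 14 lower on KO 3 than on WT 3. The 6 adipocyte genes summed to 0.14, 0.10, 6.38 and 0.12, high on KO 2 only, with Cfd the largest term of the sum on KO 2. Of the 6, 3 were tested. Adipoq and Plin1 were well above background on KO 2 only, and Lep on no array. The part of macrophage, cardiomyocyte or fat tissue content in the differences of the neutrophil genes was not tested.

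**Figure D4:**
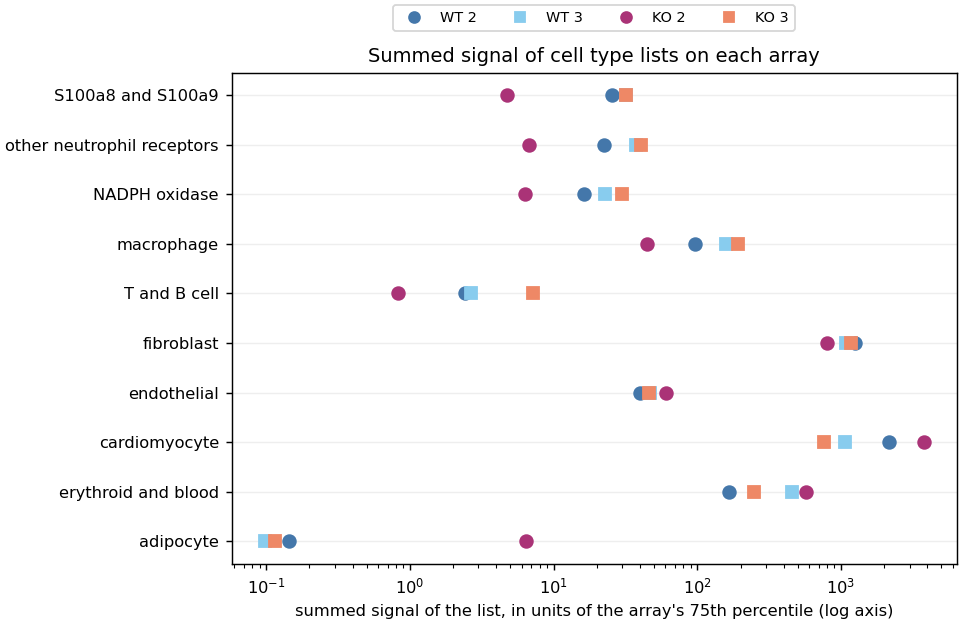
Summed processed signal of gene lists on each array, in units of the 75th percentile of the array (horizontal log axis; points are single arrays). KO 2 is lowest for the S100 genes, the other neutrophil receptors, the NADPH oxidase, macrophages, T and B cells and fibroblasts. It is highest for the cardiomyocyte, endothelial, erythroid and blood, and adipocyte lists.

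The genes with a pattern most like the average of the 7 were found by distance over the 4 arrays, among 14382 genes well above background on all arrays. The average profile, centred on 0, was 0.23 and 0.78 on WT 2 and WT 3, and -1.69 and 0.68 on KO 2 and KO 3. The nearest 5 genes were Ecrg4, Ephb2, Fcgr4, Slc2a13 and Arsi, with root mean square distances from 0.03 to 0.08 log2 units. Csf3r ranked 38, S100a9 64, Fpr1 102 and S100a8 259, whereas Retnlg ranked 1232, Lcn2 4114 and Hp 4441. The average was built from the 7 genes themselves, and 4 arrays leave many unrelated genes with a like profile.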

How the data were processed

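Total RNA from left ventricle was labelled with Cy3 and hybridised to 4 single-colour Agilent Whole Mouse Genome arrays. The authors deposited the scanner intensity of every spot, extracted per the file headers with Feature Extraction 10.7.3.1 on a grid annotated to mm9, background-subtracted and detrended, with a surrogate value for dim spots. A second deposited table held the authors' log2 values, made with GeneSpring 12.6.1, which lay within 0.01 of quantile-normalized log2 processed signal and was used as an alternative.

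Each array held 45018 spots, and the 92 to 116 non-control spots flagged as outliers were dropped. None of the spots of the 9 genes was saturated, and between 68.1% and 72.0% of probes per array were well above background. The number of arrays limits the precision. Spots of a probe were averaged, and log2 signal was shifted by the 75th percentile of the array. Probes well above background on both arrays of a group were tested with limma 3.58.1 in R 4.3.3, which left out 12868 dim probes. On simulated data the fit called the changed probes when the spread was small, and called none of them at the spread of these arrays. Where a gene had several probes, the brightest tested one was used. All arrays lay on 1 slide and in 1 scan, with genotype along the position, so position and genotype cannot be told apart and no slide or scan block could be fitted.

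The genes and lists were chosen with earlier results of these data known. Named were all 9 genes, the 3 genes of each neutrophil list with the largest absolute difference, some genes fixed by name, and the 5 with the most similar pattern. Alternatives were another background correction, other scaling, filters, variance models, array weights, the methods' t-test, the mean in place of the median over genes, a replicate block and each array left out. Group and array number came from the titles.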

Additional observations from a re-analysis of the deposited data

Results flagged for a closer look

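For 3 of the tested genes the KO and WT arrays differed in opposite directions at the numbers 2 and 3. KO was lower at number 2 and slightly higher at number 3 for S100a8, Csf3r and Retnlg, and the difference at number 2 minus that at number 3 was -2.65 for S100a8, -2.41 for Csf3r and -2.30 for Retnlg on the log2 scale. The differences at number 3 were 0.12, 0.13 and 0.28. S100a9 had a like contrast of -2.405 but differed by -0.01 at number 3. Of 45 other neutrophil genes, 41 were lower at number 2 and 28 higher at number 3, so the pattern was not particular to the 3 genes. With 1 array per genotype and number, these contrasts were not tested. The numbers also differed in sex-linked signal, which cannot be told apart from the number.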

How the results depend on the processing

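In the settings that kept all 4 arrays, the 7 genes kept their direction, and no setting called any of them after adjustment. Over 2-fold differences were found for 949 probes, and for 2110 with no filter on dim probes, 472 with only probes above background on all arrays and 209 with normexp. Leaving out 1 array gave 1087 to 5683, and of those over 2-fold the share higher in KO was 29.8% with all arrays, 44.3% when dim probes were kept, and 40.4%, 48.4% and 48.0% without KO 2, KO 3 and WT 2. The methods' t-test put 88 probes past the fold and an unadjusted p under 0.05, and 0 after Benjamini-Hochberg adjustment, none of them of the 7 genes. The genes over 2-fold lower in KO numbered 5, 3 with normexp, and 1 to 6 with an array left out. Their median of -1.07 was -0.68 with normexp, which moved the median of all probes from 0.02 to 0.13, and ranged from -2.56 without KO 3 to 0.25 without KO 2. With an array left out, S100a8 ranged from -2.78 to 0.36, S100a9 from -2.56 to 0.13, Csf3r from -2.40 to 0.25 and Retnlg from -2.71 to 0.97, each lowest without KO 3 and above 0 without KO 2, whereas Lcn2 ranged from -0.24 without KO 3 to 1.19 without KO 2, with -0.17 without WT 2. The cause was not tested. Without KO 3 the lowest adjusted p was 0.128, with 6 of the 7 genes and 7278 of the 28304 probes at an unadjusted p under 0.05, and the lone KO array was assumed to vary like the WT arrays. The 2 array numbers are not stated to pair the samples. They coincide with the sex-linked signal, Xist on the number 2 arrays and Ddx3y on the number 3 arrays, so number and sex-linked signal cannot be told apart. Same-numbered arrays deviated together (r = 0.57 over 28304 probes), and with the number as a replicate block 0 probes were called, 602 had an unadjusted p under 0.05 and the lowest adjusted p was 0.995. Ngp and Camp were too dim for a test of the genotypes.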

Other observations

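The remaining cell type lists were summed on each array. In units of the 75th percentile of the array, and in the order WT 2, WT 3, KO 2, KO 3, the summed signal of 7 monocyte genes was 92.3, 85.0, 138 and 73.6, with Ly6c2 the largest term of the sum on KO 2. Gene by gene, Ccr2, Plac8, Cx3cr1 and Chil3, 4 of the 7, were lowest on KO 2, and the median difference at number 2 was -1.52. The 8 fibroblast genes summed to 1257, 1086, 793 and 1173 in the same order, and 8 of 8 were lower on KO 2 than on WT 2. The 6 endothelial genes summed to 39.8, 46.9, 60.8 and 46.4, with 6 of 6 higher on KO 2 than on WT 2 and 5 of 6 lower on KO 3 than on WT 3. The 6 erythroid and blood genes with a probe summed to 166, 458, 569 and 246, and 4 of 4 tested were higher on KO 2 than on WT 2 (median 1.80) and 4 of 4 lower on KO 3 than on WT 3. The 5 platelet genes summed to 19.3, 24.3, 17.9 and 31.5. The 7 T and B cell genes summed to 2.43, 2.67, 0.82 and 7.18, and 7 of 7 were lower on KO 2 than on WT 2. None of these genes was called.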
